A study of Allium sativum with 18 samples.

Results

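The 2 genes described here, Asa7G03132.1 and Asa7G01587.1, are the CCA1 genes among the photoperiod genes of the study of garlic clove enlargement, and they were taken from the table by their identifiers as 2 of 57561 genes. Transcript levels were measured by RNA sequencing in 18 libraries of bulb tissue of garlic (Allium sativum), with 1 plant per library. The varieties were Chalingzipisuan, Ershuizao and Yuanjiangyangsuan, and each gave 3 individuals whose bulbs were under enlarging growth (enlarging) and 3 whose bulbs had not begun to enlarge (before). All plants grew on the same farm, planted in October, and no treatment is described. The before bulbs were taken in February and the enlarging bulbs in March, so that stage and date of collection cannot be told apart, and the hour of collection is not given in the sources used here. The labels give the tissue as leaf and the stage as that of the bulb. The table pairs identifiers with no gene names, so that neither the tissue nor the CCA1 label could be checked against marker genes or an annotation, and positions and sequences are not given.

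CCA1 (CIRCADIAN CLOCK ASSOCIATED 1) is known from Arabidopsis as a MYB-type transcription factor at the core of the circadian clock. Its transcript accumulates around dawn there, and the protein, with its close relative LHY, represses clock genes expressed in the evening, which in turn repress CCA1. The clock gates the response to day length through CYCLING DOF FACTORs (CDFs) and FLOWERING LOCUS T (FT). In onion, a relative of garlic, bulbs form in long days and FT-like proteins take part in that response.

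Levels are given as FPKM, fragments scaled by gene length and library size, which allows genes to be compared within a library. Between 10340511 and 14117986 fragments fell on genes in a library. Asa7G03132.1 rested on 254 to 1668 fragments per library, and the counting error of a library's value was 2.45% to 6.27%. Asa7G01587.1 rested on 503 to 4889 fragments, with a counting error of 1.43% to 4.46%. The coefficient of variation between the 3 individuals of a group was 4.89% to 32.8% for Asa7G03132.1 and 7.86% to 47.1% for Asa7G01587.1, so that individuals differed by more than counting alone gives in most groups. Enlarging replicate 3 of Chalingzipisuan lay among the before libraries of its variety over all genes (closest to before replicate 3, r = 0.9447, against a mean r of 0.8603 with its own group). Enlarging replicate 2 of Ershuizao was closest to before replicate 1 of that variety (r = 0.9463, against a mean r of 0.9345 with its own group). The stage differences, group means, shares and sums of their groups are also given without them.

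Both CCA1 genes were detected well above 0 in every library. Asa7G03132.1 lay above 80.2% to 96.5% of the 33681 genes tested, by its group means, and Asa7G01587.1 above 83.8% to 97.0%. Between libraries, Asa7G03132.1 spanned a 6.29-fold range, with the highest value in an enlarging Yuanjiangyangsuan bulb and the lowest in a before Chalingzipisuan bulb. Asa7G01587.1 spanned an 8.41-fold range, and both its ends lay in Ershuizao, the highest in an enlarging bulb and the lowest in a before bulb. The counting of fragments that match several genes is not described in the sources used here, so that fragments shared between members of the CCA1 family, if any, could have been split or lost.

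In Yuanjiangyangsuan, Asa7G03132.1 stood at 127.0, 124.3 and 136.4 FPKM in enlarging bulbs, against 23.8, 26.8 and 26.5 FPKM in before bulbs. In Chalingzipisuan it stood at 60.3, 57.7 and 100.3 FPKM in enlarging bulbs, against 21.7, 34.8 and 25.1 FPKM in before bulbs. In both varieties every enlarging library lay above every before library, and the individuals of Yuanjiangyangsuan differed little within a stage. In Ershuizao the gene stood at 27.9, 25.2 and 39.0 FPKM in enlarging bulbs, against 57.8, 35.9 and 51.7 FPKM in before bulbs, so that the order of the means was the opposite and the libraries overlapped.

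Asa7G01587.1 took another course. In Ershuizao it stood at 143.8, 149.8 and 167.0 FPKM in enlarging bulbs, against 46.1, 19.9 and 23.9 FPKM in before bulbs, and the lowest enlarging value was far above the highest before value. In Chalingzipisuan it stood at 74.2, 59.3 and 65.1 FPKM in enlarging bulbs, against 157.8, 107.1 and 139.1 FPKM in before bulbs. In Yuanjiangyangsuan it stood at 36.0, 30.8 and 25.0 FPKM in enlarging bulbs, against 41.2, 45.4 and 38.7 FPKM in before bulbs. In Chalingzipisuan and Yuanjiangyangsuan every enlarging library thus lay below every before library.

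**Figure D1:**
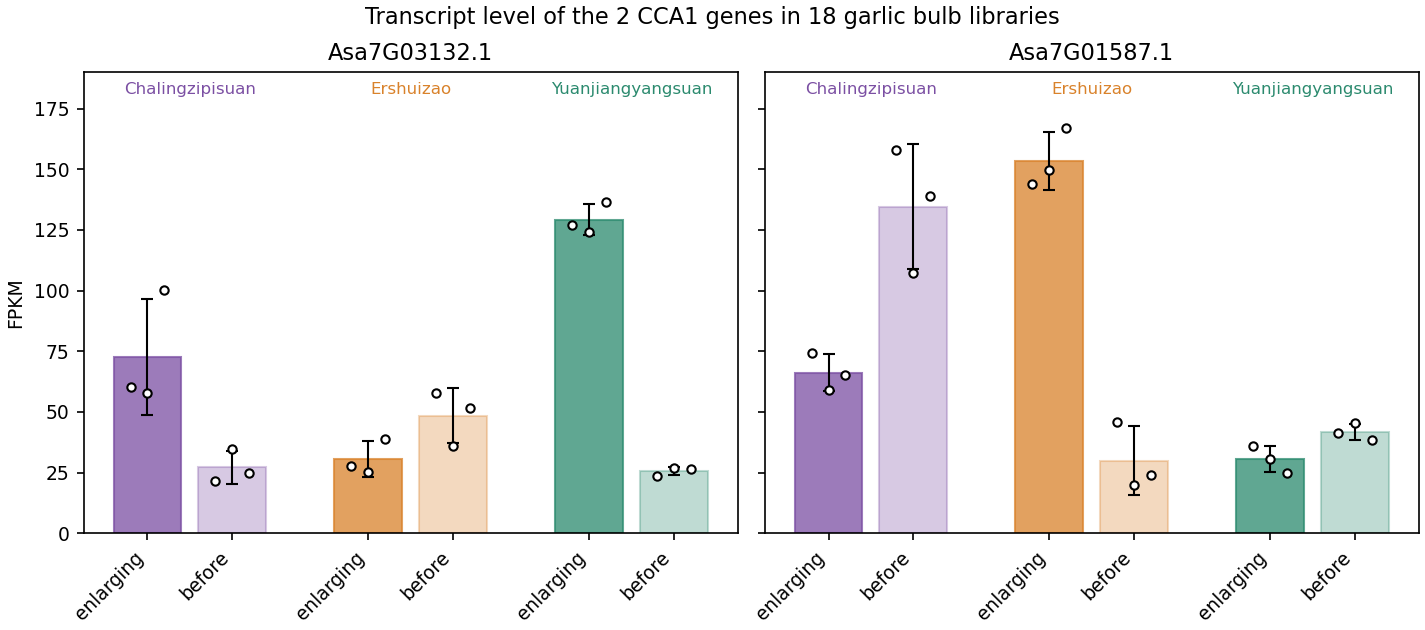
FPKM of Asa7G03132.1 (left) and Asa7G01587.1 (right) in enlarging and before bulbs of 3 varieties; points are libraries, bars the means of 3 individuals and error bars the SD. Asa7G03132.1 is highest in enlarging Yuanjiangyangsuan (mean 129.2 FPKM) and Asa7G01587.1 in enlarging Ershuizao (mean 153.5 FPKM).

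These stage differences are a description, with no test, because the genes were selected in the study on their change between the stages in the same libraries. On the scale of log2(FPKM + 0.5), the difference enlarging minus before of Asa7G03132.1 was 2.31 (SE 0.24) in Yuanjiangyangsuan, 1.39 (SE 0.24) in Chalingzipisuan and −0.65 (SE 0.24) in Ershuizao. For Asa7G01587.1 it was 2.43 (SE 0.24) in Ershuizao, −1.01 (SE 0.24) in Chalingzipisuan and −0.45 (SE 0.24) in Yuanjiangyangsuan. In each of the 3 varieties the 2 genes therefore had opposite signs, and in each the gene that was higher in enlarging bulbs had the larger difference. Without enlarging replicate 3 of Chalingzipisuan, the differences in that variety were 1.13 (SE 0.23) for Asa7G03132.1 and −1.0 (SE 0.28) for Asa7G01587.1. Without enlarging replicate 2 of Ershuizao, the differences in that variety were −0.52 (SE 0.26) for Asa7G03132.1 and 2.45 (SE 0.28) for Asa7G01587.1. Enlarging and before libraries did not overlap for 2 of 2 genes in Chalingzipisuan, where 22.0% of the genes tested did not overlap in either direction. The count was 1 of 2 in Ershuizao, where 30.7% of all genes did not overlap, and 2 of 2 in Yuanjiangyangsuan, where 45.2% did not. As the selection used this contrast, nothing is read from these counts. In bulk tissue, fewer cells of a type and less RNA per cell cannot be told apart.

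The selection asked for a change of over 2-fold. By the ratio of mean FPKM, Asa7G03132.1 was 5.03-fold higher in enlarging bulbs of Yuanjiangyangsuan and 2.68-fold higher in those of Chalingzipisuan, while in Ershuizao it was 1.58-fold higher in before bulbs, outside that limit. Asa7G01587.1 was 5.13-fold higher in enlarging bulbs of Ershuizao. It was 2.03-fold higher in before bulbs of Chalingzipisuan, just inside the limit, and 1.36-fold higher in before bulbs of Yuanjiangyangsuan, outside it. Without enlarging replicate 3 of Chalingzipisuan, the ratios in that variety were 2.17 for Asa7G03132.1 and 2.02 for Asa7G01587.1, and without enlarging replicate 2 of Ershuizao those in Ershuizao were 1.45 and 5.19, in the same directions.

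**Figure D2:**
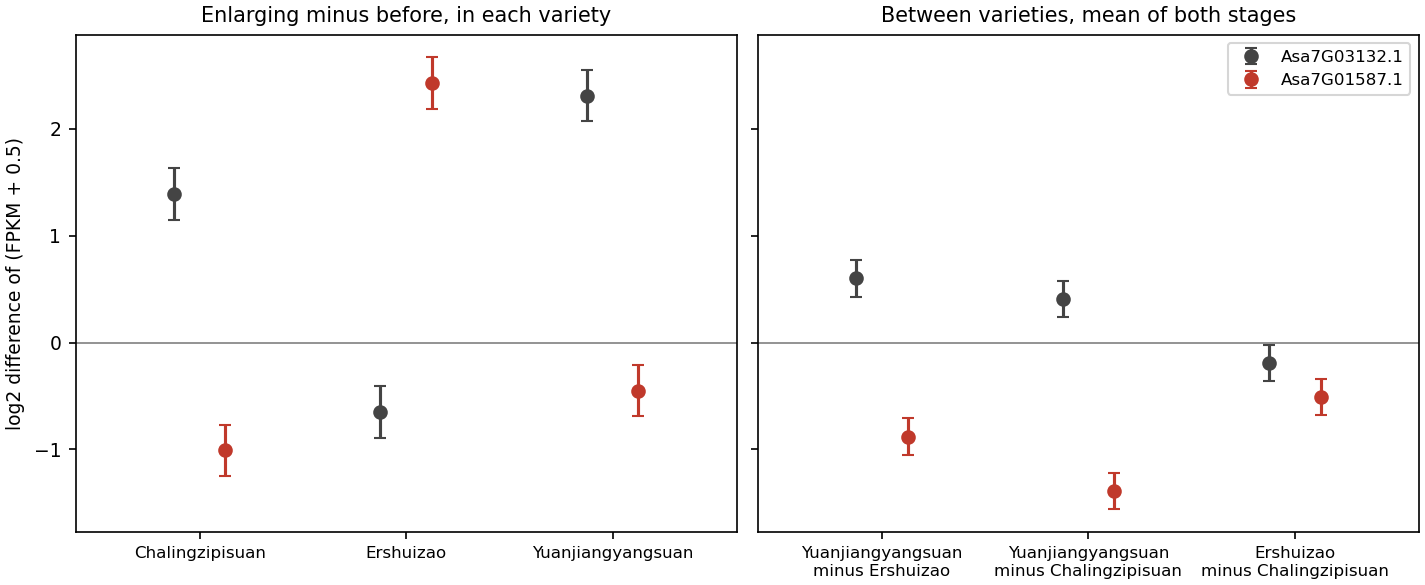
Log2 differences of FPKM + 0.5 for Asa7G03132.1 (dark) and Asa7G01587.1 (red), enlarging minus before in each variety (left) and between varieties over both stages (right); error bars are the SE of the fit to 18 libraries. The genes have opposite signs in each variety on the left, and Asa7G01587.1 is lower in Yuanjiangyangsuan than in Chalingzipisuan by 1.39 on the right.

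Ordered by group mean, Asa7G03132.1 was highest in enlarging Yuanjiangyangsuan (129.2 ± 6.32 FPKM, SD, n = 3), and no library of another group reached its lowest value. Enlarging Chalingzipisuan (72.8 ± 23.9 FPKM) and before Ershuizao (48.5 ± 11.3 FPKM) followed, and these neighbours overlapped. Enlarging Ershuizao (30.7 ± 7.32 FPKM), before Chalingzipisuan (27.2 ± 6.80 FPKM) and before Yuanjiangyangsuan (25.7 ± 1.68 FPKM) were lowest, and each overlapped with the next. Without enlarging replicate 3, the mean of enlarging Chalingzipisuan was 59.0 FPKM and kept its place in this order, and without enlarging replicate 2 that of enlarging Ershuizao was 33.4 FPKM and did so too.

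Asa7G01587.1 was highest in enlarging Ershuizao (153.5 ± 12.1 FPKM) and before Chalingzipisuan (134.6 ± 25.7 FPKM), which overlapped. Enlarging Chalingzipisuan (66.2 ± 7.53 FPKM) and before Yuanjiangyangsuan (41.8 ± 3.44 FPKM) came next, and each was apart from its neighbours in the order. Enlarging Yuanjiangyangsuan (30.6 ± 5.50 FPKM) and before Ershuizao (29.9 ± 14.1 FPKM) were lowest and overlapped. Before Yuanjiangyangsuan (38.65 to 45.45 FPKM) still lay within the range of before Ershuizao (19.86 to 46.05 FPKM). Without the same libraries the means of enlarging Chalingzipisuan and enlarging Ershuizao were 66.7 and 155.4 FPKM, with no change of place. In enlarging bulbs the varieties ranked Yuanjiangyangsuan, Chalingzipisuan, Ershuizao for Asa7G03132.1 and in the reverse order for Asa7G01587.1, with no overlap between neighbours for either gene. In before bulbs, Ershuizao was above the other varieties without overlap for Asa7G03132.1, and Chalingzipisuan was above the other varieties without overlap for Asa7G01587.1. The share of all genes without overlap between varieties is not given. No such separation, here or below, is therefore read as particular to these genes.

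The mean level over both stages was not part of the selection, so that the varieties could be compared on it. Each comparison used limma on log2(FPKM + 0.5) over all 18 libraries, with p-values adjusted over 33681 genes. Whether the varieties were collected at the same hour is not given, so that variety and hour of collection cannot be told apart. Asa7G01587.1 was lower in Yuanjiangyangsuan than in Chalingzipisuan by a log2 difference of −1.39 (SE 0.17, adjusted p = 8.51e-06, range over alternatives 2.84e-07 to 4.47e-05), with geometric means of 35.5 and 93.6 FPKM. It was lower at each stage, by −1.11 in enlarging and −1.66 in before bulbs, and at each stage all 3 Yuanjiangyangsuan libraries lay below all 3 Chalingzipisuan libraries. An exact two-sided permutation test within stages gave p = 0.005, the smallest it can give.

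Asa7G01587.1 was also lower in Yuanjiangyangsuan than in Ershuizao, by −0.88 (SE 0.17, limma adjusted p = 0.000717, range 0.000195 to 0.00264), with geometric means of 35.5 and 65.7 FPKM. This mean combined −2.32 in enlarging bulbs with 0.57 in before bulbs, and the exact permutation test did not pass the threshold (p = 0.085). Asa7G03132.1 was higher in Yuanjiangyangsuan than in Ershuizao by 0.60 (SE 0.17, limma adjusted p = 0.0093, range 0.00303 to 0.0273), with geometric means of 57.7 and 37.9 FPKM. It too combined opposite differences, 2.08 in enlarging and −0.88 in before bulbs, and the exact permutation test gave p = 0.225. Limma, which sets the difference against the spread of individuals within a group, called both, but the direction was not that of each stage. The exact test called neither. It mixes libraries of both varieties, so that stage-wise differences of opposite sign widen its reference values as well.

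The other comparisons did not pass the threshold. Asa7G03132.1 differed between Yuanjiangyangsuan and Chalingzipisuan by 0.41 (SE 0.17, limma adjusted p = 0.0687, range 0.0102 to 0.159), from 0.87 in enlarging and −0.05 in before bulbs. It passed without enlarging replicate 3 of Chalingzipisuan (0.53, adjusted p = 0.0102) or without before replicate 2 of that variety (0.50, adjusted p = 0.0307). Ershuizao and Chalingzipisuan differed by −0.19 (SE 0.17, limma adjusted p = 0.692, range 0.55 to 0.916) for Asa7G03132.1. For Asa7G01587.1 they differed by −0.51 (SE 0.17, limma adjusted p = 0.162, range 0.0115 to 0.326), which passed without before replicate 1 of Ershuizao (−0.69, adjusted p = 0.0115). The stage-wise values behind these means were larger and of opposite sign: Ershuizao minus Chalingzipisuan was −1.21 in enlarging and 0.82 in before bulbs for Asa7G03132.1, and 1.21 and −2.23 for Asa7G01587.1.

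Of all genes tested, 18.3% were called higher and 23.4% lower in Yuanjiangyangsuan than in Ershuizao, against 1 of the 2 CCA1 genes in each direction. In Yuanjiangyangsuan against Chalingzipisuan, 17.1% were called higher and 21.6% lower, against 1 CCA1 gene lower. In Ershuizao against Chalingzipisuan, 1.51% were called higher and 1.05% lower, and neither CCA1 gene was called. With quantile normalization the share of calls that were higher became 54.4%, against 43.8% in the main fit, for Yuanjiangyangsuan and Ershuizao, and the median of all genes moved by 0.112. The calls of both CCA1 genes were the same under it in the 3 pairs of varieties.

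As FPKM is scaled by gene length, the level of Asa7G01587.1 could be set against that of Asa7G03132.1 in the same bulb. In enlarging Yuanjiangyangsuan, Asa7G03132.1 made up 80.8 ± 3.35% of the summed FPKM of both genes, against 38.1 ± 2.19% in before bulbs (SD, n = 3). In Chalingzipisuan it made up 51.6 ± 8.16% in enlarging bulbs, against 17.3 ± 6.46% in before bulbs. The mean above 50% came from enlarging replicate 3 (60.7%), since the other enlarging libraries stood at 44.8% and 49.3% and their mean was 47.1%. In Ershuizao it made up 16.5 ± 2.28% in enlarging bulbs, against 62.8 ± 6.52% in before bulbs. Without enlarging replicate 2 the mean of enlarging Ershuizao was 17.6%. The predominant gene of the pair thus changed between stages in Ershuizao and Yuanjiangyangsuan, in opposite directions, and in none of the 3 varieties did the shares of the stages overlap. As both genes were selected on the stage contrast, the stage changes of the share, and of the sum below, are a description with no test. The ratio of Asa7G01587.1 to Asa7G03132.1 ran from 0.184 in an enlarging Yuanjiangyangsuan bulb to 7.28 in a before Chalingzipisuan bulb.

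**Figure D3:**
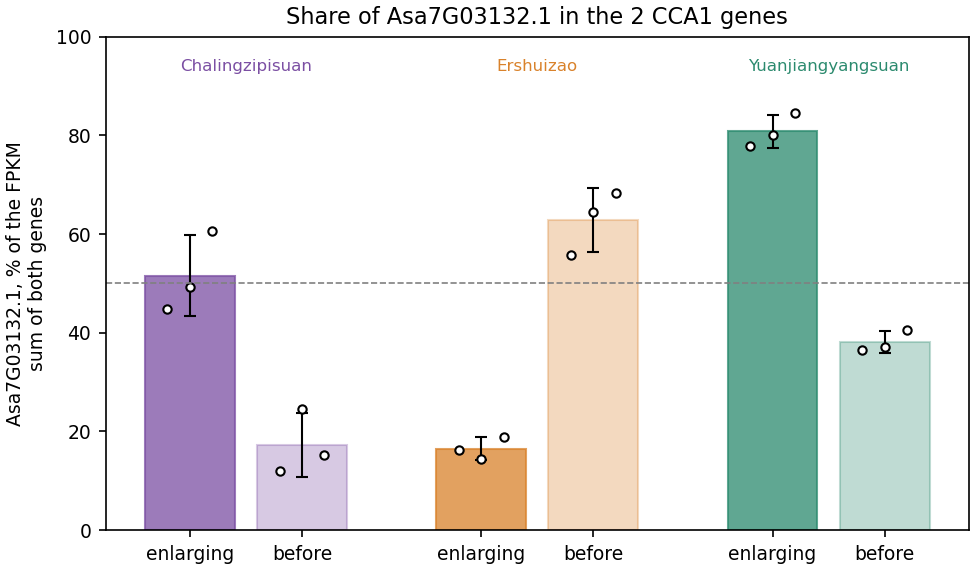
Share of Asa7G03132.1 in the FPKM sum of both CCA1 genes, in percent, for enlarging and before bulbs of each variety; points are libraries, bars means and error bars SD (n = 3), and the dashed line marks equal levels. The share is highest in enlarging Yuanjiangyangsuan (80.8%) and lowest in enlarging Ershuizao (16.5%).

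As a ratio of the highest to the lowest group mean, the summed level varied less than either gene. In FPKM its group means spanned more than those of Asa7G03132.1. The summed level was 159.8 ± 4.19 FPKM in enlarging and 67.4 ± 4.2 FPKM in before bulbs of Yuanjiangyangsuan. In Ershuizao it was 184.2 ± 19.0 FPKM in enlarging and 78.4 ± 24.2 FPKM in before bulbs. In Chalingzipisuan it was 138.9 ± 24.5 FPKM in enlarging and 161.8 ± 18.9 FPKM in before bulbs, which overlapped. Without enlarging replicate 3 the mean of enlarging Chalingzipisuan was 125.7 FPKM and its libraries lay below every before library. Without enlarging replicate 2 the mean of enlarging Ershuizao was 188.8 FPKM.

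Over both stages, the mean log2 ratio of Asa7G01587.1 to Asa7G03132.1 was −0.69 in Yuanjiangyangsuan and 1.10 in Chalingzipisuan, a difference of −1.79 (exact two-sided permutation test within stages, p = 0.005, the smallest possible, and 0.015 adjusted over 3 pairs of varieties). The difference had the same sign in enlarging (−1.98) and before bulbs (−1.61). Up to rounding, it is the difference of Asa7G01587.1 (−1.39) less that of Asa7G03132.1 (0.41), and so is not independent of the tests of the single genes. Yuanjiangyangsuan and Ershuizao had mean log2 ratios of −0.69 and 0.79, a difference of −1.48 that did not pass (exact permutation p = 0.115, adjusted p = 0.173) and that combined −4.40 in enlarging with 1.44 in before bulbs. Ershuizao and Chalingzipisuan differed by −0.32 (exact permutation p = 0.685, adjusted p = 0.685), from 2.42 in enlarging and −3.05 in before bulbs.

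**Figure D4:**
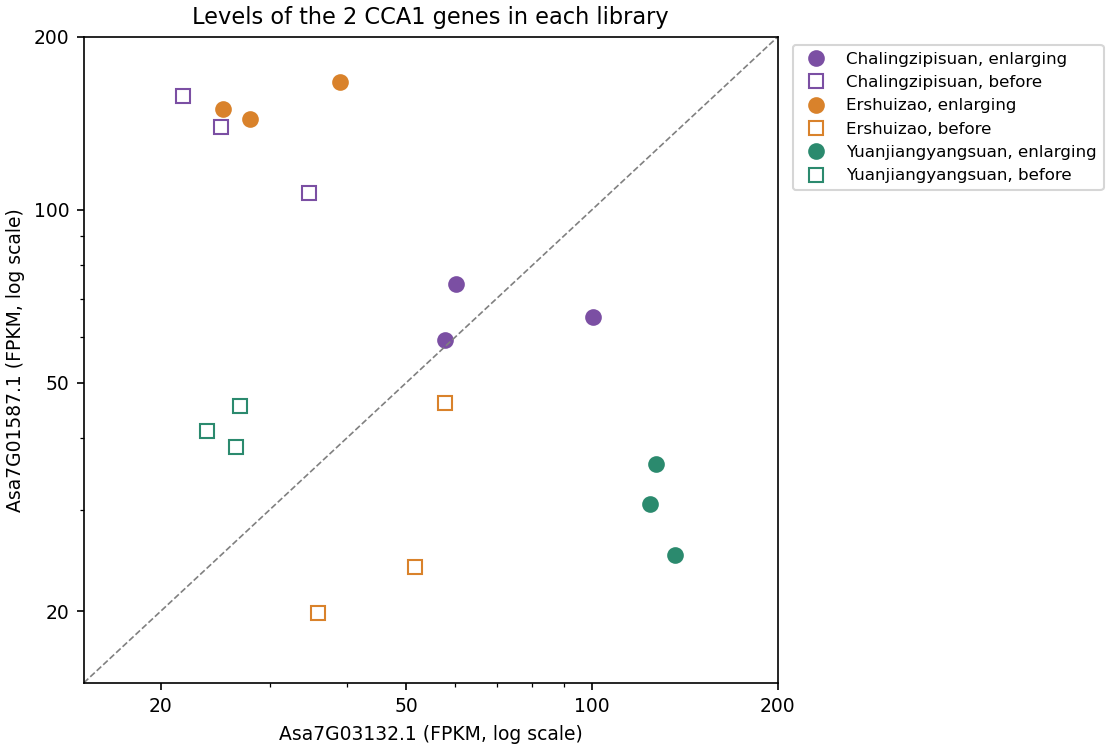
FPKM of Asa7G01587.1 (vertical, log scale) against Asa7G03132.1 (horizontal, log scale) in 18 libraries; filled circles are enlarging and open squares before bulbs, and the dashed line marks equal levels. Enlarging Yuanjiangyangsuan lies at the lower right, and enlarging Ershuizao and before Chalingzipisuan lie at the upper left.

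Across the 18 libraries the log2 levels of the 2 genes had a Pearson r of −0.499 (Spearman rho −0.447), as a description that rests on the 6 groups. Within each variety, over 6 libraries of both stages, r was −0.930 in Chalingzipisuan, −0.595 in Ershuizao and −0.821 in Yuanjiangyangsuan. Among bulbs of the same variety and stage, no relation passed the test. The deviations of the 2 genes from their group means had an r of 0.18 (exact permutation p = 0.655, 0.873 adjusted over 11 relations) and a rho of 0.0299 (exact permutation p = 0.93, adjusted p = 0.93) over 18 libraries. Without the 2 libraries farthest from the median, enlarging replicate 3 and before replicate 2 of Chalingzipisuan, r was 0.415. It was −0.138 without before replicate 1 of Ershuizao and −0.0974 without before replicate 2 of that variety, so that its sign rested on single libraries. The residual spread within groups was 0.30 for Asa7G03132.1 and 0.31 for Asa7G01587.1 on the log2 scale, against a median of 0.39 over all genes tested.

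Of the other photoperiod genes that are named in the study, Asa8G01471.1 is a homolog of CDF2. CDF proteins are DOF-type transcription factors that repress the photoperiod genes CONSTANS and FT in Arabidopsis, and in potato a CDF protein controls tuber formation. Among the 27283 genes with a mean of at least 1 FPKM, Asa8G01471.1 had the highest correlation with Asa7G01587.1 over the 18 libraries (r = 0.946, rho = 0.938), and it also ranked 1 by the 6 group means (r = 0.978). Asa8G01471.1 stood at 39.8, 32.2 and 35.6 FPKM in enlarging Ershuizao, against 16.3, 5.02 and 4.86 FPKM in before bulbs. In Chalingzipisuan it stood at 13.5, 12.7 and 8.48 FPKM in enlarging bulbs, against 30.9, 30.8 and 24.7 FPKM in before bulbs. In Yuanjiangyangsuan it stood at 6.40, 8.17 and 5.50 FPKM in enlarging bulbs, against 12.5, 9.89 and 9.59 FPKM in before bulbs. As for Asa7G01587.1, enlarging bulbs were higher without overlap in Ershuizao and lower without overlap in the other varieties.

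The level of Asa7G01587.1 was 2.83 to 7.68 times that of Asa8G01471.1 in the 18 libraries, while Asa8G01471.1 itself spanned an 8.20-fold range. The correlation was 0.931 without the 2 libraries farthest from the median of Asa7G01587.1, and it was 0.886 within Chalingzipisuan, 0.978 within Ershuizao and 0.790 within Yuanjiangyangsuan (6 libraries each). These values are a description, since the points share variety and stage, and Asa8G01471.1 is itself a gene that the study singled out in these libraries. Between bulbs of the same group, the deviations of Asa7G01587.1 and Asa8G01471.1 had an r of 0.721 (exact permutation p = 0.128, 0.873 adjusted over 11 relations) and a rho of 0.503 (exact permutation p = 0.124, adjusted p = 0.885). Without the 2 libraries farthest from the median, before replicates 1 and 2 of Ershuizao, r was 0.277. It rested on replicate 1, since r was 0.099 without that library alone and 0.647 without replicate 2 alone. With Asa7G03132.1, Asa8G01471.1 had an r of −0.585 over the 18 libraries.

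**Figure D5:**
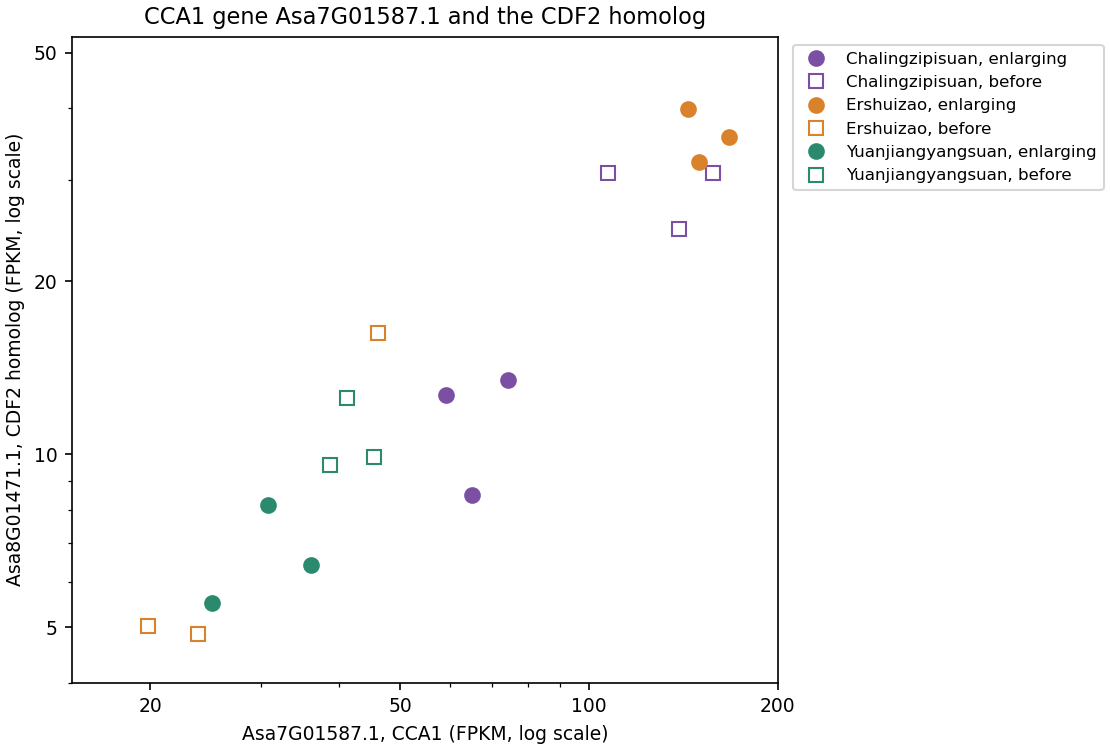
FPKM of the CDF2 homolog Asa8G01471.1 (vertical, log scale) against the CCA1 gene Asa7G01587.1 (horizontal, log scale) in 18 libraries; filled circles are enlarging and open squares before bulbs. Both are high in enlarging Ershuizao and before Chalingzipisuan, and r is 0.946.

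For Asa7G03132.1 the genes most like it were Asa3G00433.1 (r = 0.920) and Asa8G01020.1 (r = 0.884), and those most opposite were Asa7G05990.1 (r = −0.889) and Asa8G05742.1 (r = −0.884). Asa3G00433.1 had means of 67.4 FPKM in enlarging and 30.1 FPKM in before Yuanjiangyangsuan, and of 44.2 FPKM in enlarging and 31.4 FPKM in before Chalingzipisuan. Within Ershuizao, where Asa7G03132.1 itself differed least between stages, Asa3G00433.1 followed it less closely (r = 0.162, 6 libraries). For Asa7G01587.1 the second most like gene was Asa2G02016.1 (r = 0.905), and Asa2G02559.1 (r = −0.868) and Asa2G02367.1 (r = −0.856) were most opposite. The likeness to Asa2G02016.1 did not hold within Yuanjiangyangsuan (r = −0.484, 6 libraries), against 0.790 within Chalingzipisuan and 0.976 within Ershuizao. Names for these genes were not at hand. By this measure Asa7G01587.1 and Asa7G03132.1 were not alike, as 15.1% of genes had a lower r with Asa7G03132.1 than Asa7G01587.1 had. From the other side, 5.86% of genes had a lower r with Asa7G01587.1 than Asa7G03132.1 had.

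The photoperiod list held the 5 genes besides CCA1 that the text of the study names. The study counts more photoperiod homologs, which were not examined here. It chose the 5 genes at least in part on these samples, so that their stage values, those of the CDF2 homolog included, are description and no support. They were Asa2G00681.1, ELF4-like, whose Arabidopsis counterpart is part of the evening complex that represses clock genes at night, the CDF2 homolog, the TGA4-like bZIP genes Asa2G04763.1 and Asa6G01159.1, and Asa6G06199.1, an FT-like gene. Asa7G03132.1 had a positive r over the 18 libraries with 4 of the 5, from 0.429 with Asa2G04763.1 to 0.779 with Asa6G01159.1. This did not hold within each variety. Within Ershuizao (6 libraries) r was −0.512 with Asa2G04763.1, −0.0413 with Asa6G01159.1 and −0.256 with Asa6G06199.1, and within Chalingzipisuan it was 0.177 with Asa2G04763.1. Asa7G01587.1 had a negative r with 4 of the 5, none below −0.341, and the positive one was with the CDF2 homolog. The shares of all genes with an r of either sign are not given, so nothing is read from these counts. Within Ershuizao its r was positive with Asa2G04763.1 (0.915), Asa6G01159.1 (0.567) and Asa6G06199.1 (0.498), while within Yuanjiangyangsuan it was −0.892, −0.841 and −0.927 with these genes. None of the 11 relations of deviations within groups passed the threshold, with adjusted p of 0.873 to 0.892 for r by the exact permutation test.

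Between varieties over both stages, the CDF2 homolog was the gene of the photoperiod list that passed the test. It was lower in Yuanjiangyangsuan than in Ershuizao by −0.93 (SE 0.24, limma adjusted p = 0.00517). It was lower in Yuanjiangyangsuan than in Chalingzipisuan by −1.06 (SE 0.24, limma adjusted p = 0.00205). Asa7G01587.1 had the same directions, which is no separate result, since the CDF2 homolog was already the gene most like it over these libraries. In each of these pairs 1 of the 5 genes was called lower, against 23.4% and 21.6% of all genes tested. Against Ershuizao, the difference of the CDF2 homolog combined −2.35 in enlarging with 0.49 in before bulbs, so that it was not lower at each stage. Against Chalingzipisuan it combined −0.74 with −1.39. None of the 5 genes of the list passed between Ershuizao and Chalingzipisuan. The median log2 difference of the 5 genes was 0.07 for Yuanjiangyangsuan minus Ershuizao, 0.37 for Yuanjiangyangsuan minus Chalingzipisuan and 0.25 for Ershuizao minus Chalingzipisuan, against −0.052, −0.033 and 0.0 over all genes tested.

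The gibberellin list held 4 genes, which the study named in part for their levels in other accessions. They were Asa6G01110.1, an ortholog of the potato tuber promoter BEL5, Asa2G00237.1, an SLR1-like DELLA gene of the family that represses gibberellin responses, and the gibberellin 20-oxidase genes Asa4G02474.1 and Asa0G05638.1, which encode an enzyme of gibberellin synthesis. Asa4G02474.1 was too low to be tested. Asa2G00237.1 was higher in Yuanjiangyangsuan than in Ershuizao by 0.63 (SE 0.19, limma adjusted p = 0.017) and than in Chalingzipisuan by 0.59 (SE 0.19, limma adjusted p = 0.0246), with group means of 1.24 to 1.82 FPKM in Yuanjiangyangsuan. The call against Chalingzipisuan was lost without enlarging replicate 3 (adjusted p = 0.0549) or before replicate 2 (adjusted p = 0.068) of Chalingzipisuan, and without enlarging replicate 2 (adjusted p = 0.0687) or before replicate 3 (adjusted p = 0.0515) of Yuanjiangyangsuan. Of all genes tested, 18.3% were called higher in Yuanjiangyangsuan than in Ershuizao and 17.1% than in Chalingzipisuan. The other 2 genes tested did not pass in any pair of varieties, and no gene of this list passed between Ershuizao and Chalingzipisuan. Over the 18 libraries Asa7G03132.1 had an r of 0.557 with Asa6G01110.1 and of 0.616 with Asa0G05638.1, and Asa7G01587.1 had an r of 0.0292 and 0.0442 with them. These values near 0 pooled varieties of opposite sign. Within Chalingzipisuan, Ershuizao and Yuanjiangyangsuan (6 libraries each), Asa7G01587.1 had an r of −0.873, 0.957 and −0.884 with Asa6G01110.1, and of −0.809, 0.820 and −0.849 with Asa0G05638.1. Within the same varieties, Asa7G03132.1 had an r of 0.726, −0.421 and 0.974 with Asa6G01110.1, and of 0.724, −0.189 and 0.952 with Asa0G05638.1.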

How the data were processed

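Total RNA of bulb parts from 3 individuals per variety and stage was made into cDNA libraries and sequenced. The authors aligned clean reads with the garlic genome using hisat2 and deposited FPKM values per gene and library, without pooling; the counting program and how it treated fragments of several genes are not given in the sources used here. In the study, genes were selected with DEseq for a change of over 2-fold between stages in at least 2 of the 3 varieties. Groups follow the sample labels, and every value column matched a sample. The hour of collection is not given in these sources.

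FPKM steps were resolved into whole fragments for 39933 genes (99.65% of values above 0, tolerance 0.003 fragments), which gave depth, recovered lengths of 840 bases for Asa7G03132.1 and 1920 bases for Asa7G01587.1, and the input of a voom alternative. Intervals of counting cover counting error only. Of 57561 genes, 33681 with at least 0.5 FPKM in at least 3 libraries were tested with limma 3.58.1 in R 4.3.3 (trend, robust) on log2(FPKM + 0.5), with 6 group means and Benjamini-Hochberg adjusted P under 0.05. Fold changes on this scale understate those of low genes. Exact tests permuted libraries between varieties within stages (400 arrangements) or within the 6 groups (46656 arrangements). scipy 1.17.1 and numpy 2.4.6 served these. The limma p-values set a difference against the spread between individual plants of the same variety and stage. A difference in the day or hour of collection between varieties, if any, is not part of that spread. The exact test between varieties does not measure that spread alone, since it mixes libraries of both varieties within each stage. Differences of opposite sign at the stages therefore widen its reference values. Scripts were tested on simulated data.

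The CCA1 genes and the lists were chosen with earlier results of these data known. The genes named are the 2 CCA1 genes, the 9 photoperiod and gibberellin genes named in the paper's text, and for each CCA1 gene the 2 genes with the highest and the 2 with the lowest Pearson r over 18 libraries among genes with a mean of at least 1 FPKM. Alternatives varied the pseudocount, the filter, the scaling, the moderation, a replicate block, the threshold and the libraries used.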

Additional observations from a re-analysis of the deposited data

Results flagged for a closer look

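Several differences of the CCA1 genes had opposite directions in 2 groups, with every library on its side. How many of all genes do the same is not given, so this is not read as particular to the CCA1 genes. The differences between these effects were not tested, because the genes were selected on the stage contrast. For Asa7G03132.1, Yuanjiangyangsuan minus Ershuizao was 2.08 on the log2 scale in enlarging bulbs and −0.88 in before bulbs, and Ershuizao minus Chalingzipisuan was −1.21 in enlarging and 0.82 in before bulbs. For Asa7G01587.1, Ershuizao minus Chalingzipisuan was 1.21 in enlarging and −2.23 in before bulbs. Enlarging minus before of Asa7G01587.1 was 2.43 in Ershuizao, against −0.45 in Yuanjiangyangsuan and −1.01 in Chalingzipisuan.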

How the results depend on the processing

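Of 622 values recomputed under alternatives, 602 kept their direction and their side of the threshold, or stayed within the spread. This count is no measure of robustness, since some values could hardly move. The replicate block, and leaving out a library of a variety outside a comparison, kept the difference and changed only its p-value. Stage differences had no threshold to cross. Under the alternative threshold of an unadjusted P with a 2-fold change, and under the exact permutation test, Asa7G03132.1 (0.60) and Asa7G01587.1 (−0.88) were no longer called between Yuanjiangyangsuan and Ershuizao (exact p = 0.225 and 0.085). Under that threshold the called genes of the photoperiod and gibberellin lists fell to 0 between Yuanjiangyangsuan and Ershuizao, against 2, and to 1 between Yuanjiangyangsuan and Chalingzipisuan, against 2. Leaving out libraries in turn gave 1 to 2 list genes for Yuanjiangyangsuan and Chalingzipisuan. In the main fit, 18.3% of all genes tested were called higher and 23.4% lower in the first pair, and 17.1% and 21.6% in the second. The shares over all genes under that threshold are not given here, so nothing is read from these counts. The difference of Asa7G03132.1 between Yuanjiangyangsuan and Chalingzipisuan was 0.34 to 0.53, and that of Asa7G01587.1 between Ershuizao and Chalingzipisuan −0.69 to −0.39, on leaving out libraries. The stage difference of Asa7G03132.1 in Yuanjiangyangsuan was 2.40 with median-ratio scaling, 2.54 with quantile normalization and 2.40 with voom, against 2.31. The cause of these moves was not tested. The genes most like a CCA1 gene depended on the measure, and of the 4 named for each, 0 to 3 were among the first for Asa7G03132.1 and 1 to 2 for Asa7G01587.1.

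The replicate numbers were not taken as pairs, as deviations of same-numbered libraries of a variety had correlations of −0.252 to 0.141. With the replicate block, Asa7G03132.1 gave 0.60 (limma adjusted p = 0.00954) and Asa7G01587.1 −0.88 (adjusted p = 0.000521) between Yuanjiangyangsuan and Ershuizao. With whole pairs permuted as a block, the log2 ratio of the 2 genes differed by −1.79 between Yuanjiangyangsuan and Chalingzipisuan with an exact permutation p of 0.1, the smallest that 20 arrangements can give. The block changed no other call.

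Each group held 3 individuals, and Asa7G03132.1 rested on as few as 254 fragments in a library.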
